A study of Rattus norvegicus with 4 samples.

Results

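Amino acid and endoplasmic reticulum (ER) stress response genes were examined in retinal neurospheres, floating clusters grown from dissociated retina, under 2 culture conditions. The group comprised 41 genes chosen by name, among 14218 genes with a probe set of a single gene name on the array. All 41 were on the array, each measured through its brightest probe set over the 4 arrays, and 40 were bright enough to be tested. The exception was Stc2, a secreted glycoprotein, whose mean of 4.75 log2 as deposited lay just under the limit of 4.77 log2.

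The cells came from Sprague Dawley rat retina at embryonic day 18, and all samples were grown in epidermal growth factor (EGF). The control group, labelled EGF, received EGF alone, and the treated group, labelled ECCM, received EGF plus conditioned medium from cultures of endothelial cells, which form the inner lining of vessels. The retinae of 10 embryos gave the cells for both conditions, and a further pool of embryos gave the biological replicate of both, so each group had 2 arrays and no value belongs to 1 animal. The source of the endothelial cells, the dose of medium and the length of culture are not given in the sources used here.

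Cells short of amino acids or burdened with unfolded protein in the ER lower their overall protein synthesis through phosphorylation of the translation factor eIF2. The same step favours translation of the transcription factor ATF4, which, with C/EBP partners, turns on genes that make and import amino acids. Unfolded protein also activates the factors XBP1 and ATF6, which raise ER chaperones and the machinery that removes misfolded proteins. Atf4 is controlled largely through translation and Xbp1 through splicing of its RNA, and neither step is read by an array of RNA levels.

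The arrays were not on 1 scale as deposited, with medians over all 31099 probe sets of 6.03 and 6.25 log2 for EGF alone against 6.84 and 6.56 log2 for conditioned medium. Levels and differences below are therefore quantile normalized log2 values, and differences are conditioned medium minus EGF alone, with limma's standard error and Benjamini-Hochberg adjusted p over the 11492 genes tested. The median difference of these genes was 0.00 log2 after quantile normalization, 0.40 log2 as deposited and -0.16 log2 with median-centred arrays. Genes are called higher or lower when their adjusted p was under 0.05 after quantile normalization. They are said to have risen or fallen only when they passed 0.05 in the same direction under all 3 scalings.

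The neurospheres carried the RNA of retinal marker genes. All 9 measured progenitor markers, among them Pax6, Rax and Sox2, passed the limit for dim probe sets, as did all 7 photoreceptor markers. That limit was passed by 11492 of all 14218 genes, so passing it does not identify a cell type. The mean level of all genes tested was 8.42 log2 in both EGF arrays. With conditioned medium 4 of the 9 progenitor markers rose (mean level of the list 10.56 to 10.68 log2 with EGF, 11.03 to 11.07 log2 with conditioned medium). After quantile normalization 5 progenitor markers were called higher and 1 lower. Of the 7 photoreceptor markers 6 fell (9.68 to 9.75 log2, then 8.12 to 8.15 log2). Of 8 mesenchymal markers tested 7 rose (mean of all 10 on the array 5.28 to 5.37 log2, then 6.26 to 6.32 log2), with Dcn and Lum too dim to be tested. Of 7 microglia and leukocyte markers tested 4 rose (mean of all 10 on the array 4.99 to 5.09 log2, then 5.68 to 5.77 log2), with Itgam, C1qb and Cd74 too dim. Of 5 endothelial markers tested 2 rose, Esam and Flt1, while Pecam1, Tek, Tie1 and Emcn were too dim (mean of all 9 on the array 5.08 to 5.28 log2, then 5.54 to 5.65 log2). Of 4 lens markers tested 0 rose and 0 fell, with 1 called lower after quantile normalization (mean of all 8 on the array 4.48 to 4.51 log2, then 4.63 to 4.72 log2), and Cryba1, Crybb2, Mip and Lim2 were too dim. The same counts were 0 and 0 of 3 pigment epithelium markers tested, with 2 called lower (mean of all 5 on the array 6.27 to 6.33 log2, then 5.95 to 6.0 log2), and Rpe65 and Tyr were too dim. The actin controls, whose 3' probe set exceeds the 5' one by more when RNA is broken down, were apart by 1.99 and 2.08 log2 for EGF alone against 1.54 and 1.37 log2 for conditioned medium. These values moved with the condition in every result that follows, and their part in those results was not tested. In bulk RNA, a change in the number of cells of a type and a change in RNA per cell cannot be told apart.

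The comparison asks how the stress response genes differed when conditioned medium was added to EGF, and the genes did not move as 1 group. Higher levels were called for 15 of the 40 tested genes, or 37.5%, against 16.5% of all genes tested, and lower levels for 5, or 12.5%, against 14.6%. As deposited 27 were called higher and 0 lower (limma, and 0 lower at an unadjusted p under 0.05), against 40.4% and 1.78% of all genes, and with median-centred arrays 8 higher and 9 lower, against 10.2% and 32.2%. Under all 3 scalings 8 genes rose, or 20.0%, against 9.12% of all genes. They were the transcription factor Cebpb, the serine synthesis enzyme Phgdh, the translation repressor Eif4ebp1 and the ER proteins Creld2 and Sel1l. Also among them were the amino acid transporters Slc7a5 and Slc7a1, and Slc3a2, the heavy chain that partners Slc7a5. None fell (limma, 0 of 40, and 0 at an unadjusted p under 0.05), against 1.78% of all genes. The arrays of the conditions did not overlap, in the higher direction, for 24 of the 40 genes, against 33.6% of all genes, and in the lower direction for 8, against 32.6%. The median difference was 0.16 log2, and the 40 differences ran from -0.77 log2 (Slc7a11) to 1.10 log2 (Cebpb).

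The count of 15 higher genes was 9 or 8 when EGF replicate 1 or 2 was left out and 4 or 6 when treated replicate 1 or 2 was left out, where the lone array of a group is assumed to vary like the other group. The count of 5 lower genes was 2, 2, 1 and 3 in the same order, and the count of 8 that rose was 6, 5, 3 and 3. On this scale 4 of the 20 called genes, Cebpb, Slc7a5, Slc3a2 and Creld2, kept their call with any of the 4 arrays left out.

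**Figure D1:**
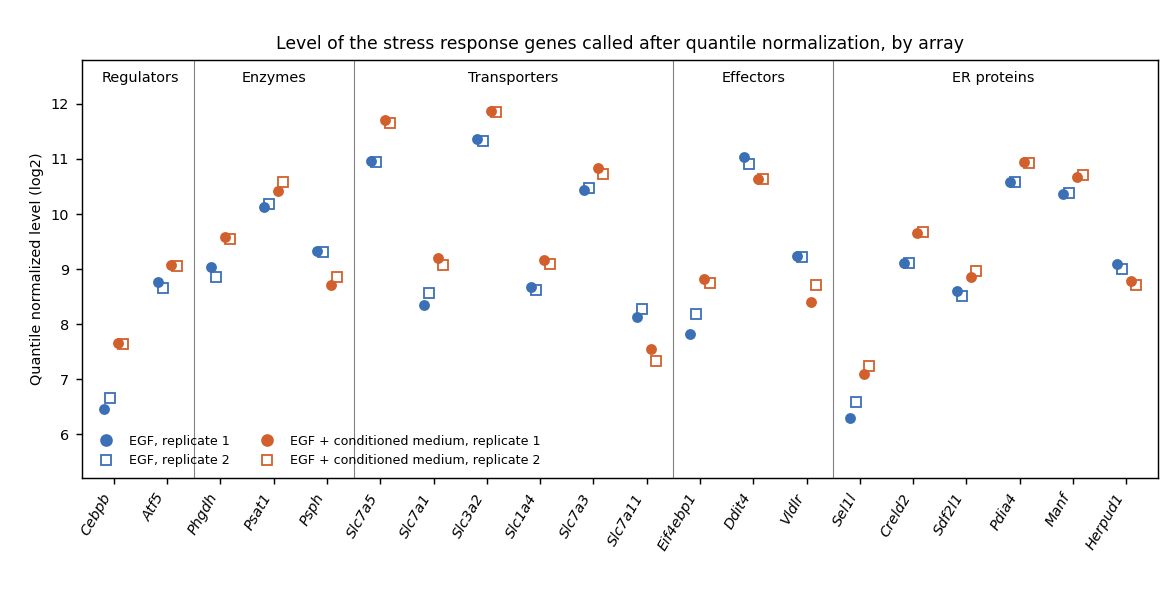
Quantile normalized log2 level (vertical axis) of the 20 genes called after quantile normalization, in each of the 4 arrays, by role; blue marks are EGF alone, orange marks EGF with conditioned medium, filled circles replicate 1 and open squares replicate 2. In 15 genes both orange marks lie above both blue marks, and in Psph, Slc7a11, Ddit4, Vldlr and Herpud1 both lie below.

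The promoters of these genes are shown here because the stress factors act through known DNA elements, and because genes that hold the same element differed in how they moved. RefSeq promoter sequences of rat assembly GRCr8 matched 36 of the 41 genes, at 37 start sites. In the 250 bases before the start, on either strand, the ER stress element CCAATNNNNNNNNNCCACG, bound by ATF6 and XBP1 with the factor NF-Y, was present in 5 genes, at 13.5% of their start sites against 0.0657% of all 33469 start sites in the table. The capitals below mark the element, which reads on the reverse strand in Creld2, Calr and the Hsp90b1 site shown.
Creld2, chr7:121789209-121789287, plus strand: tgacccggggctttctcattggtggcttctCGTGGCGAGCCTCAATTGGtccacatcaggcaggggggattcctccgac
Hspa5, chr3:38452943-38453015, plus strand: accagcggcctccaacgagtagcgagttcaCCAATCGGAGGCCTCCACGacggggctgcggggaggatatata
Hsp90b1, chr7:23012317-23012395, minus strand: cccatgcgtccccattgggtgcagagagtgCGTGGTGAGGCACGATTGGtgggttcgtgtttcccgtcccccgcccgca
Xbp1, chr14:84604528-84604606, plus strand: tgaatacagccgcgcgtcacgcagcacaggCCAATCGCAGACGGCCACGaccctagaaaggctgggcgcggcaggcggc
Calr, chr19:40213117-40213183, plus strand: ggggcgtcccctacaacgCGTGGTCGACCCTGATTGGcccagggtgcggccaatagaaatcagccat
Of these 5 genes Creld2 rose, and Hspa5, Hsp90b1, Xbp1 and Calr were not called. Hsp90b1 held a second match farther from its start. The element begins 43 bases before the start in Hspa5, 65 in Xbp1, 72 in the Hsp90b1 site shown, 145 in Creld2 and 232 in Calr.

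The C/EBP-ATF response element, searched on either strand as TGATGNAA, was present in 7 of the 36 genes, at 18.9% of their start sites against 3.40% of all. Its form TGATGCAA, which lies within the former, was present in 4 of them, at 10.8% of start sites against 0.693% of all. The element TGACGTGG, also bound by XBP1 and ATF6, was found in 0 of the 36 genes and at 0.520% of all start sites. Capitals mark TGATGNAA in 5 of the 7 genes, chosen because they span the responses seen; it reads forward in Slc7a1 and in reverse in the others.
Slc7a1, chr12:11664428-11664487, plus strand: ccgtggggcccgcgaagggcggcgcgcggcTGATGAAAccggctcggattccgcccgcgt
Slc1a4, chr14:98761760-98761812, minus strand: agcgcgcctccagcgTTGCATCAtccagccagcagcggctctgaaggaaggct
Chac1, chr3:126795934-126796001, plus strand: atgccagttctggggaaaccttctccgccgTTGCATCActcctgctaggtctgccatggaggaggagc
Trib3, chr3:161275534-161275584, minus strand: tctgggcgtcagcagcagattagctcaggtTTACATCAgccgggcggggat
Herpud1, chr19:10614854-10614921, minus strand: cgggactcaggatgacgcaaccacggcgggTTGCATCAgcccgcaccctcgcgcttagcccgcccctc
Slc7a1 rose and Slc1a4 was called higher, Chac1 and Trib3 were not called, and Herpud1 was called lower. Nupr1 and Pck2, which also hold the element, were not called. A match is a description of the letters and not evidence of a bound site, and a promoter without a match says nothing of the factors that act on it.

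Among the 8 regulators Cebpb stood out, and the factors at the head of the response did not rise with it. Cebpb, a basic leucine zipper factor that pairs with ATF4 and also acts in inflammation, was at 6.46 and 6.66 log2 with EGF alone and at 7.67 and 7.65 log2 with conditioned medium. It rose 2.14-fold (1.10 ± 0.14 log2, SE, n = 2 per group, limma adjusted p = 0.000178), and the gap between the conditions was larger than the 0.19 log2 between the EGF arrays. Cebpb passed under all 3 scalings in every alternative tried. Atf5, a factor of the same family whose translation also rises under stress, was at 8.77 and 8.66 log2 and then at 9.08 and 9.06 log2. It was called higher after quantile normalization (0.35 ± 0.09 log2, SE, limma adjusted p = 0.0145) but not with median-centred arrays (0.14 log2), and it lost the call when any 1 array was left out.

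Atf4 itself was at 11.96 and 11.94 log2 with EGF alone and at 11.74 and 11.80 log2 with conditioned medium, lower in both treated arrays. The difference of -0.18 ± 0.06 log2 (SE) had a limma adjusted p of 0.0523. Its direction turned with the scaling, at 0.13 log2 as deposited and -0.44 log2 (limma adjusted p = 0.00410) with median-centred arrays. Ddit3, which encodes CHOP, the factor tied to cell death in prolonged stress, was at 8.95 and 8.54 log2 and then at 8.45 and 8.45 log2. Its difference of -0.30 ± 0.13 log2 (SE) was not called (limma adjusted p = 0.107), and the EGF arrays lay 0.41 log2 apart. As deposited it was 0.07 log2. With median-centred arrays Ddit3 was called lower (-0.50 log2, limma adjusted p = 0.0154). After quantile normalization its difference was -0.50 log2 without EGF replicate 2 but -0.09 log2 without EGF replicate 1. It was -0.30 log2 with either treated array left out.

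The remaining regulators were not called after quantile normalization. Xbp1, the factor of the unfolded protein response, was at 10.79 and 10.85 log2 and then at 10.93 and 10.88 log2 (0.08 ± 0.07 log2, SE, limma adjusted p = 0.398). As deposited Xbp1 was called higher (0.40 log2, limma adjusted p = 0.0381), and with median-centred arrays it differed by -0.17 log2 and was not called. Cebpg, a dimer partner of ATF4, differed by 0.15 ± 0.09 log2 (SE), and it too was called higher as deposited (0.48 log2, limma adjusted p = 0.0236) and at -0.08 log2 with median-centred arrays. Trib3, a pseudokinase that ATF4 and CHOP induce, differed by -0.04 ± 0.23 log2 (SE), and its groups overlapped. Its 3 probe sets differed by -0.04, 0.61 and 0.01 log2, the last 2 of them dim. As deposited they differed by 0.71 (limma adjusted p = 0.122), 1.35 and 0.59 log2. Nupr1, a small stress-induced nuclear protein, differed by 0.11 ± 0.30 log2 (SE), also with overlap. The standard errors of Trib3 and Nupr1 were the widest of the regulators, and the mean of Nupr1 lay near the limit for dim probe sets.

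**Figure D2:**
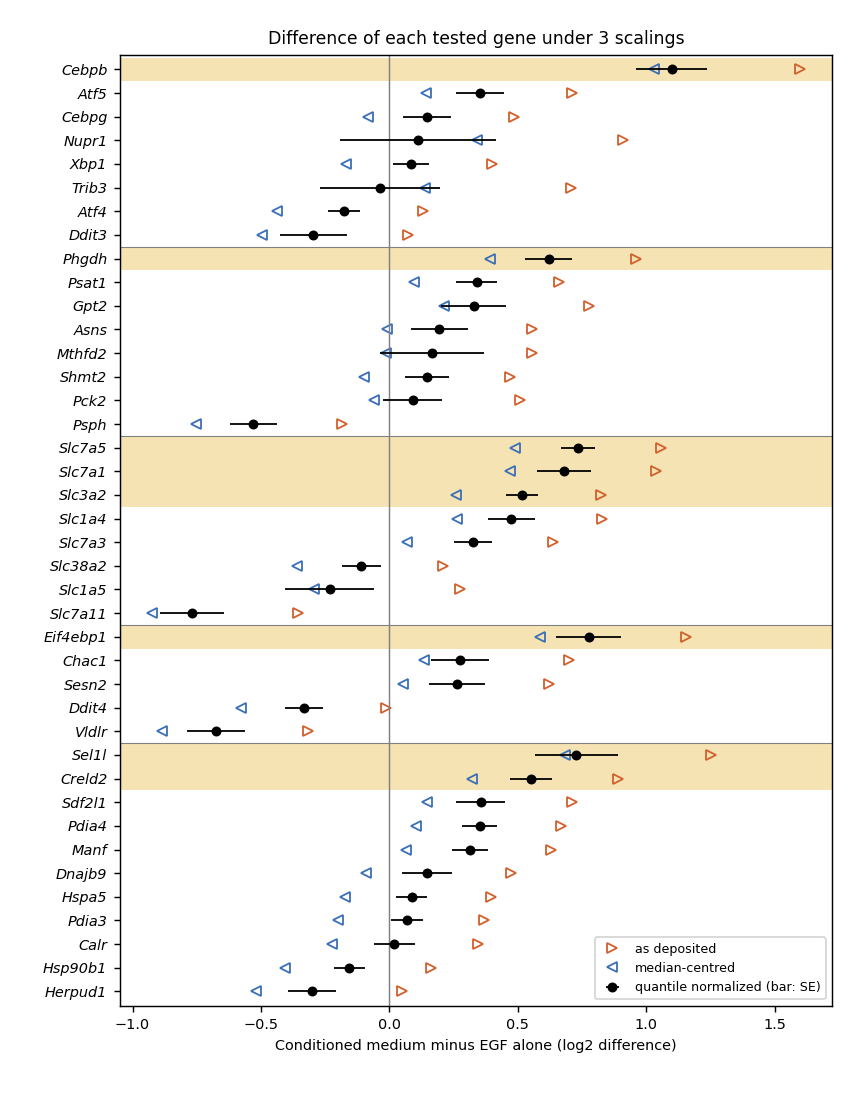
Difference of each of the 40 tested genes between conditions (horizontal axis, log2, conditioned medium minus EGF alone), ordered by role; black points with SE bars are quantile normalized, orange triangles as deposited and blue triangles median-centred. Shaded genes, 8 in all, passed 0.05 in the same direction under all 3 scalings; the 5 lower genes did not pass as deposited.

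Of the 8 enzymes 1 rose, 1 more was called higher and 1 was called lower after quantile normalization, and these 3 are the consecutive steps of serine synthesis. As deposited 7 of the 8 were called higher, and with median-centred arrays 1 was called higher and 1 lower. Phgdh, phosphoglycerate dehydrogenase, which makes the committed step, was at 9.04 and 8.87 log2 with EGF alone and at 9.59 and 9.55 log2 with conditioned medium. It rose 1.54-fold (0.62 ± 0.09 log2, SE, limma adjusted p = 0.000560), and its call was lost without conditioned-medium replicate 1 (0.61 log2, limma adjusted p = 0.0572). Phgdh also no longer passed under all 3 scalings without EGF replicate 2, without treated replicate 2 or without the intensity trend. Psat1, the aminotransferase of the middle step, was at 10.13 and 10.19 log2 and then at 10.43 and 10.57 log2. It was called higher (0.34 ± 0.08 log2, SE, limma adjusted p = 0.00861), but not with median-centred arrays (0.09 log2) nor without any 1 of the 4 arrays.

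Psph, the phosphatase that releases serine, moved the other way. It was at 9.32 and 9.30 log2 with EGF alone and at 8.71 and 8.85 log2 with conditioned medium, so both treated arrays were lower. It was called 1.44-fold lower (-0.53 ± 0.09 log2, SE, limma adjusted p = 0.00146), but as deposited the difference was -0.19 log2 (limma adjusted p = 0.398), so it did not pass under all 3 scalings. The call was also lost without EGF replicate 2, as it was without treated replicate 1. Within each array any shift of the whole array cancels from the ratio of Phgdh to Psph. As deposited that log2 ratio, set to the mean of the EGF arrays, was 0.07 and -0.07 with EGF alone and 1.23 and 1.06 with conditioned medium, a 2.21-fold change.

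Asns, asparagine synthetase, a classic target of ATF4, was at 8.76 and 8.64 log2 with EGF alone and at 8.76 and 9.03 log2 with conditioned medium. The groups overlapped, and its difference of 0.19 ± 0.11 log2 (SE) was not called (limma adjusted p = 0.213). As deposited Asns was called higher (0.56 log2, limma adjusted p = 0.0115), and with median-centred arrays the difference was -0.01 log2. The mitochondrial one-carbon enzymes Shmt2 (0.15 ± 0.09 log2, SE) and Mthfd2 (0.17 ± 0.20 log2, SE) were not called, and the EGF arrays of Mthfd2 lay 0.80 log2 apart. The mitochondrial enzymes Pck2 (0.09 ± 0.11 log2, SE), which makes phosphoenolpyruvate, and Gpt2 (0.33 ± 0.13 log2, SE), which makes alanine, were not called either. All 4 were called higher as deposited (0.47, 0.56, 0.51 and 0.78 log2 for Shmt2, Mthfd2, Pck2 and Gpt2) and not called with median-centred arrays (-0.10, -0.01, -0.06 and 0.21 log2). The other probe set of Gpt2, dim with EGF alone, differed by 1.31 log2. With the mean of its probe sets Gpt2 was called higher (0.82 log2, limma adjusted p = 0.00313) and passed under all 3 scalings.

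The 8 amino acid transporters counted here include Slc3a2, a heavy chain of carriers rather than a carrier. Of the 8, 5 were called higher after quantile normalization, or 62.5%, against 16.5% of all genes. This was the largest share of higher calls among the 5 roles on that scale. Of these 5 transporters 3 rose, or 37.5% of the 8, against 9.12% of all genes. As deposited transporters again had 5 of 8 called higher, below the enzymes (7 of 8) and the ER proteins (8 of 11). Slc7a5, the LAT1 carrier of large neutral amino acids such as leucine, was at 10.96 and 10.95 log2 with EGF alone and at 11.71 and 11.66 log2 with conditioned medium. It rose 1.66-fold (0.73 ± 0.07 log2, SE, limma adjusted p = 2.28e-05) and, like Cebpb, passed under all 3 scalings in every alternative tried. Slc3a2, the heavy chain that brings LAT1 to the cell surface, was at 11.37 and 11.33 log2 and then at 11.87 and 11.85 log2. It rose 1.43-fold (0.52 ± 0.06 log2, SE, limma adjusted p = 0.000156). With median-centred arrays its adjusted p was 0.0449, and it passed under all 3 scalings in none of the 8 other alternatives, although its quantile normalized call held in each.

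Slc7a1, a carrier of the cationic amino acids arginine and lysine, was at 8.36 and 8.56 log2 and then at 9.20 and 9.07 log2. It rose 1.60-fold (0.68 ± 0.11 log2, SE, limma adjusted p = 0.000699). Its 3 probe sets differed by 0.68, 0.39 and -0.31 log2, the last of them dim and at 0.30 log2 as deposited, and the mean of them was not called (0.25 log2, limma adjusted p = 0.197). The call was also lost without conditioned-medium replicate 1. Slc7a3, another cationic carrier (0.32 ± 0.07 log2, SE), and Slc1a4, a carrier of serine and alanine (0.47 ± 0.09 log2, SE), were called higher but not with median-centred arrays. Slc7a3 lost its call without any 1 of the 4 arrays, and Slc1a4 without any but EGF replicate 1.

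Slc7a11, the xCT exchanger that takes up cystine for glutathione and also needs the Slc3a2 heavy chain, was the lowest of the 40 genes by difference. It was at 8.13 and 8.28 log2 with EGF alone and at 7.55 and 7.32 log2 with conditioned medium, and the groups did not overlap. It was called 1.70-fold lower (-0.77 ± 0.12 log2, SE, limma adjusted p = 0.000876), but as deposited the difference was -0.36 log2 (limma adjusted p = 0.148), and without EGF replicate 2 the call was lost. The deposited log2 ratio of Slc7a5 to Slc7a11 within an array, set to the EGF mean, was 0.08 and -0.08 with EGF alone and 1.31 and 1.51 with conditioned medium, a 2.66-fold change. The 2 partners of 1 heavy chain changed unequally within the arrays, but the pair was chosen after the values were seen. Slc1a5, a glutamine carrier (-0.23 ± 0.17 log2, SE), and Slc38a2, a carrier of small neutral amino acids that starvation induces (-0.11 ± 0.07 log2, SE), were not called, and their groups overlapped. As deposited they differed by 0.27 and 0.21 log2 and were not called, and with median-centred arrays Slc38a2 was called lower (-0.36 log2, limma adjusted p = 0.0111).

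Among the 5 tested effectors of growth, redox state and lipid uptake, Eif4ebp1 rose while Ddit4 and Vldlr were called lower. The 1 higher call was 20.0% of the 5, against 16.5% of all genes, and the 2 lower calls 40.0%, against 14.6%. Eif4ebp1, a repressor of cap-dependent translation that mTORC1 switches off, was at 7.82 and 8.18 log2 with EGF alone and at 8.82 and 8.74 log2 with conditioned medium. It rose 1.71-fold (0.77 ± 0.13 log2, SE, limma adjusted p = 0.000936), and its call was lost without either conditioned-medium array. Ddit4, an inhibitor of mTORC1 that hypoxia also induces, was at 11.03 and 10.90 log2 and then at 10.63 and 10.64 log2. It was called lower (-0.33 ± 0.07 log2, SE, limma adjusted p = 0.00617), yet the deposited difference was -0.01 log2, and the call was lost without any array but EGF replicate 2.

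Vldlr, a lipoprotein and reelin receptor that ATF4 can induce, was at 9.25 and 9.22 log2 with EGF alone and at 8.40 and 8.72 log2 with conditioned medium. It was called 1.60-fold lower (-0.68 ± 0.11 log2, SE, limma adjusted p = 0.00112). Its 4 probe sets differed by -0.68, -0.72, -0.28 and -0.25 log2, and as deposited by -0.32 (limma adjusted p = 0.148), -0.35, 0.08 and 0.31 log2, so the direction of the last 2 turned with the scaling. The call was lost without either EGF array or treated replicate 1. Sesn2, another inhibitor of mTORC1 (0.26 ± 0.11 log2, SE), and Chac1, which degrades glutathione (0.27 ± 0.11 log2, SE), were not called, though in both genes the treated arrays lay above the EGF arrays. Both were called higher as deposited (0.62 and 0.70 log2) and not with median-centred arrays (0.05 and 0.13 log2). The other probe set of Sesn2, which was dim, differed by 0.66 log2. The mean of the 2 probe sets of Sesn2 was called higher (0.46 log2, limma adjusted p = 0.0312) and passed under all 3 scalings. Stc2, untested, was at 4.74 and 4.99 log2 and then at 5.04 and 4.28 log2, with overlap.

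Of 11 ER proteins 5 were called higher after quantile normalization, or 45.5%, against 16.5% of all genes, and 2 of these rose. Called lower was 1, or 9.09%, against 14.6%. Hspa5, Hsp90b1, Calr, Pdia3 and Dnajb9 were not called on that scale. Hspa5, the chaperone BiP and a standard marker of the unfolded protein response, was at 12.27 and 12.29 log2 with EGF alone and at 12.32 and 12.42 log2 with conditioned medium. Its difference of 0.09 ± 0.06 log2 (SE) was not called (limma adjusted p = 0.317). As deposited Hspa5 was called higher (0.39 log2, limma adjusted p = 0.0255), and with median-centred arrays it differed by -0.17 log2 and was not called. Also not called were the HSP90 paralogue Hsp90b1 (-0.16 ± 0.06 log2, SE) and the lectin chaperone Calr (0.02 ± 0.08 log2, SE). Pdia3, the disulfide isomerase that partners Calr (0.07 ± 0.06 log2, SE), and the J-domain co-chaperone Dnajb9 (0.15 ± 0.10 log2, SE) were not called either. Pdia3 (0.37 log2, limma adjusted p = 0.0399) and Dnajb9 (0.47 log2, limma adjusted p = 0.0229) were called higher as deposited, and Hsp90b1 was called lower with median-centred arrays (-0.41 log2, limma adjusted p = 0.00673) but differed by 0.16 log2 as deposited.

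Creld2, an ER stress-inducible protein that assists disulfide exchange, was at 9.12 and 9.12 log2 with EGF alone and at 9.66 and 9.68 log2 with conditioned medium. It rose 1.46-fold (0.55 ± 0.08 log2, SE, limma adjusted p = 0.000590). Its promoter and those of Hspa5, Hsp90b1, Xbp1 and Calr, printed above, hold the same element. The deposited log2 ratio of Creld2 to Hspa5 within an array, set to the EGF mean, was 0.01 and -0.01 with EGF alone and 0.52 and 0.47 with conditioned medium, a 1.41-fold change. Under all 3 scalings Creld2 no longer passed without EGF replicate 2, without conditioned-medium replicate 2 or without the intensity trend.

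Sel1l, the adaptor that links misfolded proteins to the HRD1 ubiquitin ligase, was at 6.29 and 6.59 log2 and then at 7.10 and 7.24 log2. It rose 1.66-fold (0.73 ± 0.16 log2, SE, limma adjusted p = 0.00570) but lost its call without any array except EGF replicate 2. Herpud1, which acts in the same degradation complex, was at 9.10 and 9.01 log2 and then at 8.78 and 8.72 log2. It was called lower (-0.30 ± 0.09 log2, SE, limma adjusted p = 0.0298), but its difference was 0.05 log2 as deposited, and the call was lost without any 1 of the 4 arrays. The deposited log2 ratio of Creld2 to Herpud1 changed 1.79-fold.

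The disulfide isomerase Pdia4 was at 10.59 and 10.57 log2 with EGF alone and at 10.94 and 10.93 log2 with conditioned medium (0.35 ± 0.07 log2, SE, limma adjusted p = 0.00297). Sdf2l1, a partner of BiP complexes, was at 8.60 and 8.51 log2 and then at 8.86 and 8.96 log2 (0.36 ± 0.10 log2, SE, limma adjusted p = 0.0166). Manf, a secreted ER stress protein with neurotrophic activity, differed by 0.31 ± 0.07 log2 (SE, limma adjusted p = 0.00689). In these 3 genes the replicates lay within 0.10 log2 of each other. They were called higher after quantile normalization and as deposited, but not with median-centred arrays, where they differed by 0.10, 0.14 and 0.06 log2. Sdf2l1 and Manf lost the call without any 1 of the 4 arrays, and Pdia4 without any but EGF replicate 1.

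Further genes of the same pathways, 68 of them tested, included 9 called higher, or 13.2%, and 3 lower, or 4.41%, and 3 that rose, or 4.41%, read against the same shares of all genes as above; these shares were not tested against those of the 40 genes. The median difference of the 68 was 0.13 log2. As deposited 44 were called higher and 0 lower, and with median-centred arrays 3 higher and 11 lower. None fell (limma, and 1 at an unadjusted p under 0.05 under all 3 scalings). Leaving out the EGF arrays 1 and 2 and the treated arrays 1 and 2 in turn gave 4, 3, 1 and 2 higher genes and 1 lower gene each time.

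Of 14 stress sensors and regulators of eIF2, 3 were called higher, or 21.4%, against 16.5% of all genes. Of the same 14, 0 rose, against 9.12% of all genes. As deposited 10 of the 14 were called higher, against 40.4% of all genes. Ppp1r15a, the GADD34 subunit that reverses eIF2 phosphorylation, was at 7.49 and 7.47 log2 and then at 8.01 and 7.84 log2 (0.45 ± 0.12 log2, SE). Eif2s1, the phosphorylated subunit of eIF2 itself, differed by 0.27 ± 0.07 log2 (SE), and Dnajc3, an ER co-chaperone that restrains eIF2 kinases, by 0.33 ± 0.10 log2 (SE). These 3 calls were lost with median-centred arrays and without any 1 of the 4 arrays. The kinases that sense ER stress, Eif2ak3 (0.27 ± 0.10 log2, SE), and amino acid shortage, Eif2ak4 (-0.13 ± 0.11 log2, SE), were not called.

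Of 14 other genes that ATF4 is known to induce, 2 rose, or 14.3%, against 9.12% of all genes. Another 2 were called lower, or 14.3%, against 14.6%. Atf3, a stress factor that growth signals also induce, was at 5.92 and 6.34 log2 and then at 6.81 and 7.003 log2. It rose 1.71-fold (0.77 ± 0.19 log2, SE, limma adjusted p = 0.00923). Mthfd1l, a mitochondrial one-carbon enzyme, rose 1.67-fold (0.74 ± 0.19 log2, SE, limma adjusted p = 0.0134). Both lost their calls without any array but EGF replicate 2. Bcat1, which starts the breakdown of branched-chain amino acids, was at 12.21 and 12.35 log2 and then at 11.66 and 11.63 log2. It was called lower (-0.64 ± 0.07 log2, SE, limma adjusted p = 5.68e-05) but did not pass as deposited (-0.32 log2, limma adjusted p = 0.0789). The other probe set of Bcat1 differed by -0.27 log2 and by 0.12 log2 as deposited, so its direction turned with the scaling.

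None of 19 aminoacyl-tRNA synthetases, the enzymes that charge tRNAs and that ATF4 induces as a set, was called after quantile normalization (limma, with 6 higher and 1 lower at an unadjusted p under 0.05). Of all genes, 16.5% were called higher and 14.6% lower on that scale, and 40.4% higher as deposited. As deposited 12 of the 19 were called higher, with median-centred arrays 2 were called lower, and 1 was called higher with the mean of all probe sets or without EGF replicate 1. Through the brightest probe set of each gene, their quantile normalized differences ran from -0.18 to 0.27 log2, with a median of 0.10 log2. Some of their other probe sets above the dim limit went farther in both directions. Such probe sets differed by 0.66 log2 in Lars1, 0.56 log2 in Gars1 and 0.41 log2 in Wars1. Others differed by -0.32 log2 in Eprs1 and -0.31 log2 in Farsb, and as deposited all of these were positive. Of 21 other genes of ER folding and degradation 4 were called higher, or 19.0%, against 16.5% of all genes, and 1 lower, or 4.76%, against 14.6%. Txndc5, a thioredoxin-like disulfide isomerase, rose 1.56-fold, from 9.40 and 9.36 log2 to 9.97 and 10.08 log2 (0.64 ± 0.08 log2, SE, limma adjusted p = 0.000234). Under all 3 scalings Txndc5 no longer passed without conditioned-medium replicate 2 or without the intensity trend. Pdia6, another isomerase (0.39 ± 0.08 log2, SE), and Sec61b, a subunit of the ER translocation channel (0.31 ± 0.07 log2, SE), were called higher but not with median-centred arrays. Pdia6 lost its call without EGF replicate 2 or either conditioned-medium array, and Sec61b without any array but treated replicate 2.

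**Figure D3:**
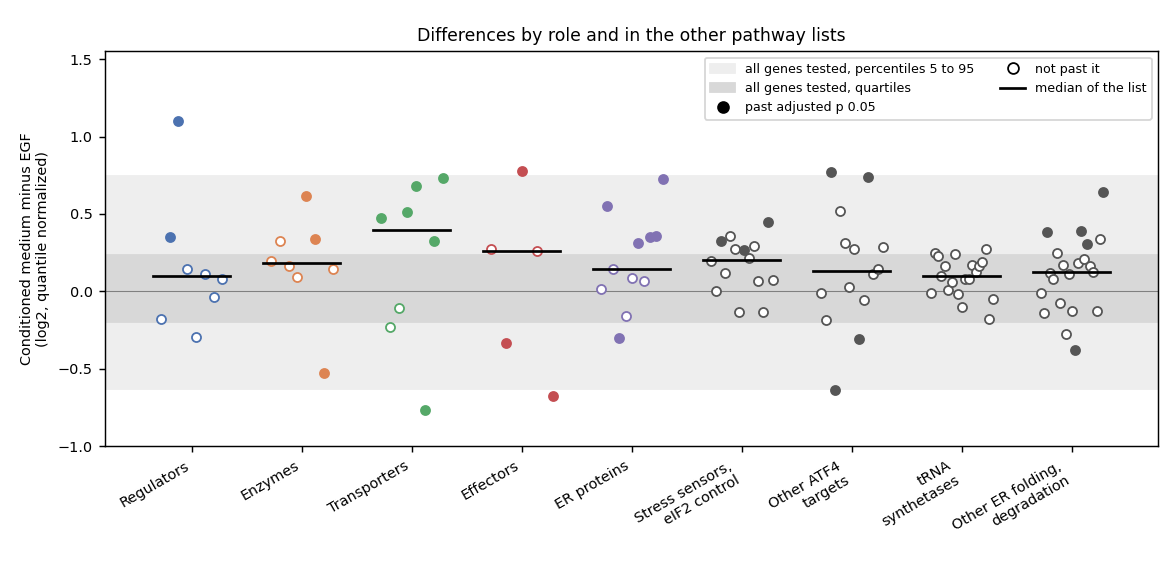
Difference of each tested gene (vertical axis, log2, quantile normalized, conditioned medium minus EGF alone) in the 5 roles and in the 4 other pathway lists; filled points passed an adjusted p of 0.05, open points did not, and bars are list medians. Grey bands span the quartiles (-0.20 to 0.23 log2) and percentiles 5 to 95 (-0.63 to 0.75 log2) of all 11492 genes. Each gene is shown by its brightest probe set. The transporters have the highest median, 0.40 log2, and the tRNA synthetases, so measured, lie within a narrow range near 0.10 log2.

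**Figure D4:**
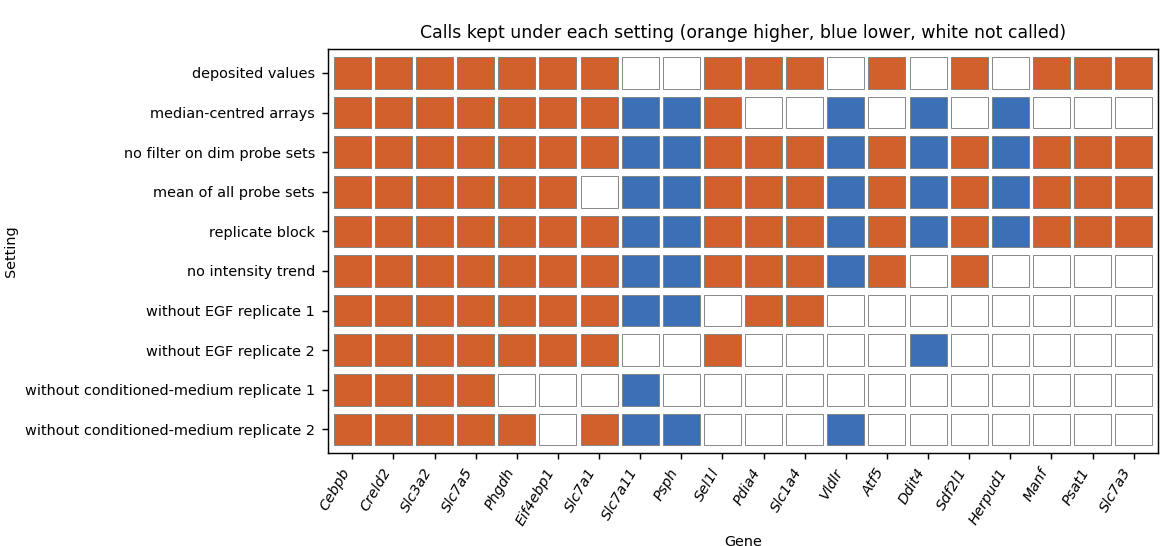
Calls of the 20 called genes (horizontal axis) under 10 alternative settings (vertical axis); orange is called higher, blue called lower and white not called in that direction at an adjusted p of 0.05. Cebpb, Creld2, Slc3a2 and Slc7a5 were called in all 10 settings, and the 5 lower genes were not called as deposited.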

How the data were processed

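Each of the 4 samples was 1 Affymetrix rat array. Per the series' design text and the submitters' processing notes, the authors ran RMA in GenePattern, and the deposited values are log2. Which RMA version and what scaling between arrays were used is not given in the sources used here. Array medians differed, so the values were quantile normalized over all 31099 probe sets, with the deposited and the median-centred values as alternatives. Probe sets with exactly 1 gene symbol in the platform annotation (20832; 436 had several and 9831 none) were used, and each gene took its brightest. Genes whose mean lay in the lowest 30% of probe sets were left out, judged over all 4 arrays, so that a gene dim in only 1 condition could still pass. Conditions were compared with limma 3.58.1 in R 4.3.3 (lmFit, eBayes with an intensity trend, two-sided). The replicates were pools of embryos, and the number of arrays limits the precision. As deposited, and with median-centred arrays in some alternatives, limma took each gene's spread wholly from the trend. Where no trend was fitted to the deposited values, it took 1 common spread for all genes. The p-values of these fits do not use a gene's own spread between replicates.

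Members, lists and rules were chosen with earlier results of these data known. Full values are given for up to 4 called members per role with the largest difference, for Atf4, Ddit3, Asns, Xbp1 and Hspa5, and for up to 3 called genes per other list with the smallest p. Genes named beyond this and the ratios within arrays were chosen after their values were seen. The other alternatives were no filter, the mean of all probe sets, no trend, the replicate as a block, and leaving out each array. On simulated data with 11492 genes, 15.2% of changes of 0.5 log2, 94.0% of 1 log2 and 100% of 2 log2 were recovered, and 7.28% of calls were false. There only 66 or 67 genes changed by each amount, against 1891 called higher and 1673 lower on the arrays. The simulated spread also did not follow intensity, so these shares may not hold for the arrays.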

Additional observations from a re-analysis of the deposited data

How the results depend on the processing

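The counts moved with the scaling between arrays and with single arrays. Members called higher numbered 15 after quantile normalization, 27 as deposited and 8 with median-centred arrays, and members called lower numbered 5, 0 and 9 in turn (limma as deposited, 0 lower also at an unadjusted p under 0.05). Of the other pathway genes 9, 44 and 3 were called higher and 3, 0 and 11 lower, with 1 lower as deposited at an unadjusted p under 0.05. Signs turned as deposited for 7 members, Atf4 (0.13 log2), Ddit3 (0.070 log2), Herpud1, Trib3, Slc1a5, Slc38a2 and Hsp90b1. With median-centred arrays they turned for 11, Xbp1 (-0.17 log2), Asns (-0.011 log2), Hspa5 (-0.17 log2), Cebpg, Trib3, Shmt2, Mthfd2, Pck2, Calr, Pdia3 and Dnajb9. Other settings turned signs of Trib3, Nupr1, Mthfd2 and Calr, which were not called.

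Leaving out each array gave 4 to 9 members higher and 1 to 3 lower, 3 to 6 under all 3 scalings, and 1 to 4 other pathway genes higher and 1 lower; these fits have fewer arrays. Without the intensity trend 3 members were lower, 5 rose under all 3 scalings and 5 other pathway genes were higher; the cause was not tested. Dropping the filter or averaging probe sets left the counts over all members within 1.5 times, though averaging probe sets gave 2 effectors higher in place of 1. With averaged probe sets the count that rose stayed at 8, but its members changed. Slc7a1 and Slc3a2 no longer passed under all 3 scalings, while Gpt2 and Sesn2 did.

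With the replicate block, 15 members were higher and 5 lower, and 7 rose under all 3 scalings, where Slc3a2 was lost. No label ties the numbers to the embryo pools, and deviations of same-numbered arrays correlated at -0.03 across genes (-0.12 as deposited), over only 2 pairs. Changes of about 0.5 log2 were seldom recovered in simulated data. Far fewer genes changed there than were called here, so that share may not hold for these arrays. A gene not called may still have differed.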
